A study of Mus musculus with 6 samples.

Results

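Casp1, Casp4, Gsdmd, Gsdme, Il18, Pycard and Aim2, which encode proteins of the inflammasomes and the gasdermin pores, were read out of a gene table of mouse hematopoietic stem cells by their symbols. All 7 were found among the 11108 genes listed. The cells came from Mcph1-/- and wild-type (WT) mice, given no treatment according to the labels, and were sorted from bone marrow as lineage-negative, Sca-1 positive, c-Kit positive, CD34-negative and CD150-positive cells. RNA-seq, the counting of sequenced cDNA fragments per gene, was run with Smart-seq2, which amplifies whole cDNAs from tiny inputs, on 200 cells per library, with 3 Mcph1-/- and 3 WT libraries. The ages of the mice, the deleted part of Mcph1 and whether the libraries of a genotype stem from separate animals are not stated in the labels, so that p-values cover the spread among these libraries alone, which may be technical. Each value is a normalised read count, the reads of a gene in a library divided by the size factor of that library.

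An inflammasome is a protein platform that forms in the cytosol when a sensor meets a danger signal such as misplaced DNA. The sensor binds the adaptor ASC, the adaptor gathers pro-caspase molecules, and the activated inflammatory caspases cut the precursors of interleukin cytokines and gasdermin D. The freed end of gasdermin D forms pores in the plasma membrane, through which cytokines leave and by which the cell can die, a death called pyroptosis. Blood stem and progenitor cells of mice are known to be able to die in this way.

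Recovered totals were 9464810, 10455908 and 9484122 reads in Mcph1-/- replicates 1 to 3, and 8102605, 8450778 and 8655123 in WT replicates 1 to 3. The genes with reads numbered 10665 ± 134 in Mcph1-/- libraries and 10274 ± 63.1 in WT libraries (SD, n = 3 each; two-sided exact permutation p = 0.1, the lowest value possible with 3 against 3). Mcph1, the targeted gene, which encodes a protein of the DNA damage response and of chromosome condensation, stood at 428, 37.7 and 234 in the Mcph1-/- libraries and at 160.5, 341 and 34.4 in the WT libraries, so that reads over the whole gene did not separate the genotypes; with the deleted part unknown they do not check the labels. Of 16 stem cell markers 15 had reads in every library, among them Kit and Ly6a, which encode the sorting markers c-Kit and Sca-1. Slamf1, which encodes the sorting marker CD150, had 0 reads in WT replicate 1 and 1 read (a value of 0.893) in Mcph1-/- replicate 3.

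The question was whether transcripts of this pathway differ between Mcph1-/- and WT stem cells. None of the 7 genes passed the test over all 10846 genes whose mean value reached 10 (limma-trend, Benjamini-Hochberg adjusted p of 0.625 to 0.988, threshold 0.05). Among all genes tested 0.0369% passed, 4 in number. With an unadjusted p under 0.05 there was 1 member, Gsdmd, and 7.71% of all genes tested. Neither edgeR nor DESeq2, run on recovered reads, called any of the 7, where they called 0.0184% and 2.19% of all genes tested. Both gave Gsdmd alone among the 7 an unadjusted p under 0.05, which edgeR gave to 5.47% and DESeq2 to 10.9% of all genes tested. By the mean of log2 values 5 members were higher and 2 lower in Mcph1-/-, beside 53.8% and 46.2% of all genes tested. Their median log2 fold change was 0.11, that of all genes tested 0.08. Gsdmd, the gene of the main pore-forming protein, was the 1 member whose libraries did not overlap between genotypes, with the Mcph1-/- libraries below the WT libraries. Such a pattern was found in 6.8% of all genes tested.

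**Figure D1:**
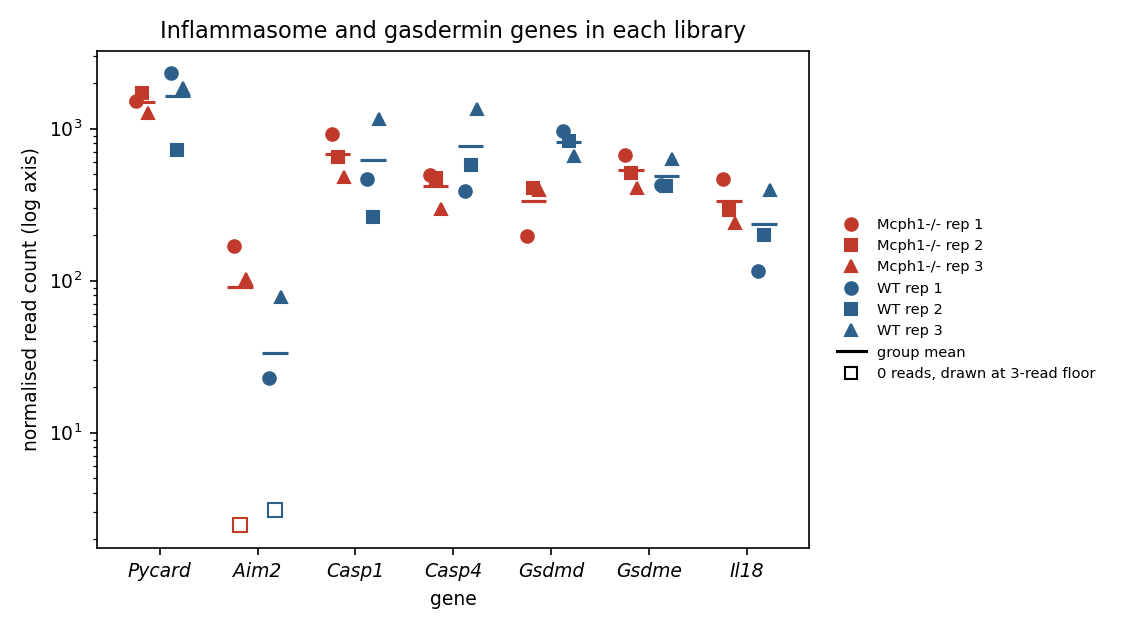
Normalised read count (log axis) of the 7 genes in each library, Mcph1-/- in red and WT in blue, with a line at each group mean; open symbols mark 0 reads, drawn at the value of 3 reads. For Gsdmd the Mcph1-/- libraries sit between 197 and 407 and the WT libraries between 662 and 962, while the groups overlap for the other 6 genes.

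Pycard encodes ASC, the adaptor that links sensors to caspases. The gene sits on chromosome 7, minus strand, from 127989708 to 127993867 (mm10). Its exons share sequence with the antisense gene Gm45205, whose reads cannot be told apart from its own without a strand setting. Its normalised read count was 1516, 1714 and 1274 in Mcph1-/- replicates 1 to 3, against 2308, 724 and 1846 in WT replicates 1 to 3. The WT libraries held both the highest and the lowest value, and the Mcph1-/- libraries lay between them. Pycard averaged 1501 ± 220.2 in Mcph1-/- and 1626 ± 814 in WT (SD, n = 3 each), and its log2 fold change was 0.03 (SE 0.42; 95% interval -0.93 to 0.995; limma adjusted p = 0.988). The sign of this value is not fixed, since edgeR gave -0.084 and DESeq2 -0.12.

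Aim2 encodes a sensor that binds double-stranded DNA in the cytosol. The gene sits on chromosome 1, plus strand, from 173350879 to 173466040 (mm10). It stood at 169, 0 and 102 in Mcph1-/- replicates 1 to 3, against 22.8, 0 and 77.9 in WT replicates 1 to 3. In replicate 2 of both genotypes no read was found, which allows a value of up to 2.46 in the Mcph1-/- library and 3.09 in the WT library, counting error only. Behind the other values stand 185 and 114 reads in Mcph1-/- and 21 and 77 reads in WT. Aim2 averaged 90.2 ± 85.0 in Mcph1-/- and 33.6 ± 40.1 in WT (SD, n = 3 each), with a log2 fold change of 1.07 (SE 2.55; 95% interval -4.78 to 6.92; limma adjusted p = 0.926). That interval reaches far on both sides of 0, so that a large difference in either direction was not detectable here.

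Casp1 encodes caspase-1, the protease of the canonical inflammasome, and Casp4 encodes the mouse protease that binds bacterial lipopolysaccharide in the noncanonical pathway. The genes are neighbours on the plus strand of chromosome 9 (mm10), Casp1 from 5298517 to 5307265 and Casp4 from 5308828 to 5336783, with 1562 bases between the end of the first and the start of the next. The 250 bases before their transcription starts are shown because the pair sits side by side and yet shared only part of its pattern over the libraries. The sequences come from RefSeq (GRCm38.p6, the assembly behind mm10), on the plus strand, chr9:5298267-5298516 for Casp1 and chr9:5308599-5308848 for the first of the 2 listed starts of Casp4. Capitals mark a match to the kappaB pattern, GGGA and CC with any 4 bases between, the kind of site that NF-kB dimers bind.
Casp1: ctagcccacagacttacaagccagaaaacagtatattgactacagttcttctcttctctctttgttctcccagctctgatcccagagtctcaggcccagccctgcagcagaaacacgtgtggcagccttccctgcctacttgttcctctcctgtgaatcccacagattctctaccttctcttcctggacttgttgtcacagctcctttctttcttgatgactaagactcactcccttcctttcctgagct
Casp4: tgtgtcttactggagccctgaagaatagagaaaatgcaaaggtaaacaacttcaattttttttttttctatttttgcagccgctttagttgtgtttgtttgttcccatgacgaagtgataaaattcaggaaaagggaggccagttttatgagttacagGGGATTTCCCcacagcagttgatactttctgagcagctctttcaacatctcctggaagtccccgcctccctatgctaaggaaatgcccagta

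The Casp4 window holds 1 kappaB match, whose left end lies 92 bases before the start, and the Casp1 window holds none. On either strand that pattern was found in 17.6% of the 32851 promoter windows of the same length. Also searched on both strands were the core of the interferon-stimulated response element, GAAA and GAAA with any 2 bases between (2.98% of windows), and GAGGAAGT, an ETS-family pattern bound by PU.1 (2.44% of windows). The ETS pattern was found once in the Aim2 window and once, on the opposite strand, in the Pycard window, while the interferon pattern was found in none of the windows of the 6 members with an entry. RefSeq starts need not be the ends of the gene spans given here, and the Aim2 window lies inside the span of that gene. Promoter entries of Gsdme and Il18 held no match to any of the 3 patterns. No entry was listed for Gsdmd. A match is a string of letters and says nothing of binding in these cells.

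Casp1 stood at 917, 653 and 479 in Mcph1-/- replicates 1 to 3, against 465, 261 and 1149.9 in WT replicates 1 to 3. WT replicate 3 was the highest of all 6 libraries and WT replicate 2 the lowest. The gene averaged 683 ± 221 in Mcph1-/- and 625 ± 466 in WT (SD, n = 3 each), with a log2 fold change of 0.35 (SE 0.57; 95% interval -0.96 to 1.65; limma adjusted p = 0.880). Without WT replicate 2 the log2 fold change was -0.15, and without WT replicate 3 it was 0.92.

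Casp4 had normalised read counts of 492, 477 and 295 in the Mcph1-/- libraries, against 389, 579 and 1340.3 in the WT libraries. WT replicate 3 again held the highest value, while the other WT libraries lay near those of Mcph1-/-. It averaged 421 ± 109.7 in Mcph1-/- and 769.5 ± 503 in WT (SD, n = 3 each), and its log2 fold change was -0.71 (SE 0.52; 95% interval -1.91 to 0.49; limma adjusted p = 0.726), or -0.21 without WT replicate 3. Within a library, where the size factor cancels, the ratio of Casp4 to Casp1 counts was 0.536, 0.730 and 0.616 in Mcph1-/- replicates 1 to 3 and 0.837, 2.22 and 1.17 in WT replicates 1 to 3. These ratios did not overlap between the genotypes, with the Mcph1-/- libraries below. Set over Casp1 in the same way, 3.4% of all genes tested gave that pattern.

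Gsdmd encodes gasdermin D, the pore former that the inflammatory caspases free from its own inhibitory domain. The gene sits on chromosome 15, plus strand, from 75862327 to 75867408 (mm10), and its exons overlap no other annotated gene. Its normalised read count was 197, 407 and 393 in Mcph1-/- replicates 1 to 3, against 962, 822 and 662 in WT replicates 1 to 3. Every Mcph1-/- library was below every WT library, with replicate 1 the lowest in Mcph1-/- and the highest in WT. Gsdmd averaged 332 ± 117 in Mcph1-/- and 815 ± 150.1 in WT (SD, n = 3 each), so that the mean in WT was 2.45 times that in Mcph1-/-. The log2 fold change was -1.35 (SE 0.43; 95% interval -2.33 to -0.37), a ratio of 0.393 of the geometric means, with an unadjusted p of 0.0130 and an adjusted p of 0.625 (limma). It held place 226 of 10846 by p, and 9.64% of all genes tested had a log2 fold change as low or lower. The adjusted p was 0.0626 by DESeq2 and 0.803 by edgeR, and 0.332 without WT replicate 3. In bulk libraries, fewer cells that carry a transcript and less of it per cell cannot be told apart.

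**Figure D2:**
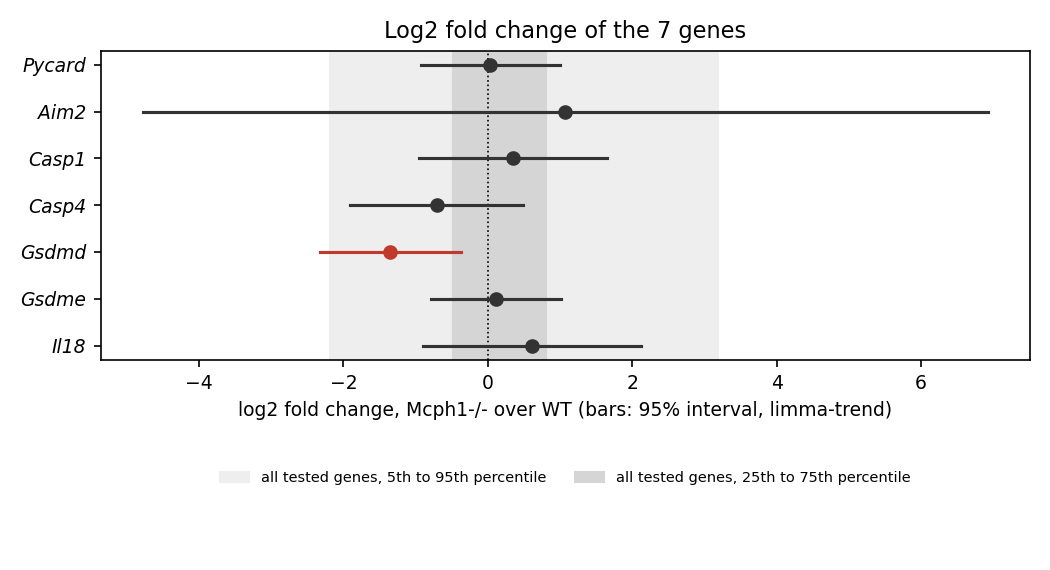
Log2 fold change (Mcph1-/- over WT) of the 7 genes with 95% intervals from limma-trend; the darker band spans the 25th to 75th percentile of all tested genes (-0.48 to 0.81) and the lighter band the 5th to 95th (-2.19 to 3.19). The interval of Gsdmd, -2.33 to -0.37, is the one that does not cross 0, before adjustment for the number of genes tested.

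Neutrophils and macrophages are rich in gasdermin D, and transcripts of such cells were lower in sum in the same libraries. Higher and lower genes are counted here by the sign of their log2 fold change. The neutrophil and granule list had values for 8 of 17 genes, 7 of them lower. The limma threshold was passed by 3 (S100a8, S100a9 and Ngp), against 2 by edgeR and 4 by DESeq2. Summed values were 3632 to 19071 in the Mcph1-/- libraries and 59118 to 67974 in the WT libraries. Libraries of Elane, Mpo, Prtn3 and Csf3r overlapped between genotypes. Mpo was the 1 higher gene (log2 fold change 1.45). Elane counts as lower (-1.58), yet its plain mean was 2700 in Mcph1-/- and 1251 in WT. In Mcph1-/- replicate 3, the library with the sum of 19071, Elane stood at 8095, Mpo at 4856 and Prtn3 at 5459. The monocyte, macrophage and dendritic cell list had values for 7 of 18 genes, 6 of them lower and 0 past the limma threshold (2 with an unadjusted p under 0.05). Summed values were 7284 to 8767.5 in Mcph1-/- and 15150 to 17167 in WT. The largest part was Lyz2, which averaged 4486 ± 124 in Mcph1-/- and 10187 ± 2465 in WT (SD, n = 3 each). Ctss, the 1 higher gene, stood at 204, 191 and 262 in Mcph1-/- and at 19.5, 19.6 and 184 in WT, without overlap. Elane had 0 reads in Mcph1-/- replicate 2, Ly6c2 in Mcph1-/- replicates 1 and 2, and Cd68 in WT replicate 1. Erythroid genes went the other way in sum, at 52237 to 58431 in Mcph1-/- and 20262 to 41963 in WT, for 12 of 13 genes with values, 8 of them higher and 1, Car1, past the limma threshold, where edgeR called 0 and DESeq2 4. Without Car1, a choice made after seeing the data, the sums overlapped, at 26586 to 28521 in Mcph1-/- and 18634 to 37396 in WT. The largest part of these sums was Car2, which averaged 19334 ± 1364 in Mcph1-/- and 16994 ± 2536 in WT (SD, n = 3 each). Klf1, Gata1 and Blvrb were also higher in every Mcph1-/- library than in any WT library, none of them past the limma threshold. The adult globin genes Hba-a1, Hba-a2 and Hbb-bs were lower in every Mcph1-/- library than in any WT library, the first pair being near-identical copies whose split of reads is uncertain. Hbb-bt, another adult globin gene, overlapped between genotypes (log2 fold change 0.14). Each of these globin genes had its highest value in WT replicate 3. Of all genes tested 14.2% had groups that did not overlap, and 6.8% had Mcph1-/- below WT. The summed stem cell markers stood at 20746 to 22702.5 in Mcph1-/- and at 27656 to 30298 in WT, 12 of 16 lower and 0 past the limma threshold (5 with an unadjusted p under 0.05). In each of these lists with 0 past the limma threshold and separated sums, edgeR called 0 genes and DESeq2 1. Among all genes tested limma called 0.0369%, edgeR 0.0184% and DESeq2 2.19%, and 7.71% had an unadjusted limma p under 0.05. Sums of the platelet list (6 of 8 genes with values) and the lymphoid list (5 of 14) overlapped between genotypes. The part of these cell types in the Gsdmd values was not tested.

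Gsdme encodes gasdermin E, a related pore former that is freed by cutting during apoptosis. The gene sits on chromosome 6, minus strand, from 50188888 to 50263862 (mm10). Its normalised read count was 673, 513 and 408 in Mcph1-/- replicates 1 to 3, against 425, 418 and 627 in WT replicates 1 to 3. The groups overlapped over most of their range. Gsdme averaged 531 ± 134 in Mcph1-/- and 490.0 ± 118 in WT (SD, n = 3 each), with a log2 fold change of 0.11 (SE 0.39; 95% interval -0.79 to 1.01; limma adjusted p = 0.955).

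Because both gasdermins were counted in the same libraries, their ratio is free of the size factor. Gsdmd over Gsdme was 0.293, 0.794 and 0.963 in Mcph1-/- replicates 1 to 3 and 2.26, 1.97 and 1.06 in WT replicates 1 to 3. So Gsdme had more reads than Gsdmd in every Mcph1-/- library and fewer in every WT library, though Mcph1-/- replicate 3 and WT replicate 3 lay close together. Gsdmd over Il18 was 0.421, 1.39 and 1.65 in Mcph1-/- and 8.29, 4.13 and 1.69 in WT. For Gsdmd over Pycard the values were 0.130, 0.237 and 0.308 in Mcph1-/- and 0.417, 1.14 and 0.359 in WT. The genotypes did not overlap in any of these 3 ratios, which share Gsdmd, whose own libraries did not overlap, and so are not separate results. Mcph1-/- below WT was the pattern of 5.51% of all genes tested when set over Gsdme, 7.68% over Il18 and 3.25% over Pycard. Over Casp1 the ratio of Gsdmd overlapped, at 0.215, 0.623 and 0.821 in Mcph1-/- and 2.07, 3.15 and 0.576 in WT, as it did over Casp4. Of the 15 pairs of the 6 members read in all libraries, 5 had ratios that did not overlap, 3 of them with Gsdmd. The others were Casp4 with Casp1 and Casp4 with Il18, which share Casp4 and so are not separate results either. The share of such pairs among all genes tested was not computed, so that no excess among the members can be read from this count.

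**Figure D3:**
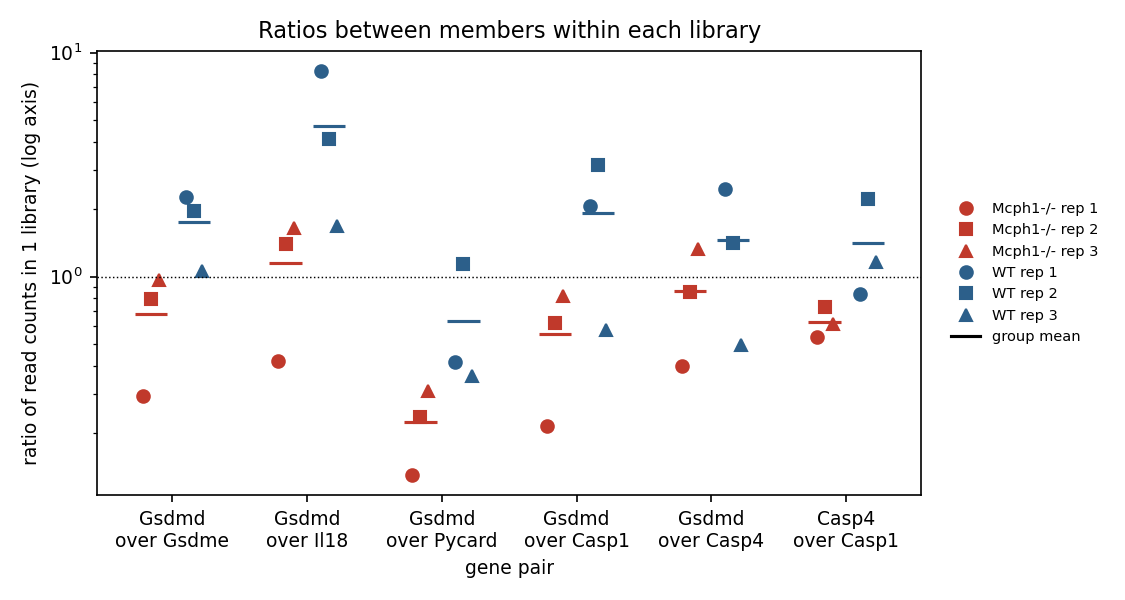
Ratio of the read counts of 2 members within each library (log axis), Mcph1-/- in red and WT in blue, with a line at each group mean and a dotted line at a ratio of 1. Gsdmd over Gsdme lies between 0.293 and 0.963 in Mcph1-/- and between 1.06 and 2.26 in WT, while the ratios of Gsdmd to Casp1 and to Casp4 overlap through WT replicate 3.

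Il18 encodes the precursor of interleukin-18, a cytokine that caspase-1 cuts into its active form. It sits on chromosome 9, plus strand, from 50554827 to 50581840 (mm10). It stood at 468, 292 and 238 in Mcph1-/- replicates 1 to 3, against 116, 199 and 393 in WT replicates 1 to 3. The lowest pair of libraries was WT, but WT replicate 3 was above Mcph1-/- replicates 2 and 3. Il18 averaged 333 ± 120.1 in Mcph1-/- and 236 ± 142 in WT (SD, n = 3 each), with a log2 fold change of 0.61 (SE 0.66; 95% interval -0.90 to 2.12; limma adjusted p = 0.802).

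Levels were set side by side per kilobase of annotated exon, so that long genes do not count for more. Over all 6 libraries Casp1 stood at 437 ± 219 and Pycard at 411 ± 142 normalised reads per kilobase (SD, n = 6), followed by Il18 at 276 ± 125, Gsdmd at 241 ± 122 and Casp4 at 160.4 ± 102. The ranges of each neighbour in that order overlapped. Gsdme at 40.1 ± 9.03 lay below all of these, with a highest library of 52.8 beside a lowest of 79.4 for Casp4, and Aim2 was last at 17.7 ± 19.1. Within Mcph1-/- the level of Gsdmd was 139.8 ± 49.4 per kilobase, and its range did not reach that of Il18 at 323 ± 116 (SD, n = 3 each). In WT Gsdmd was at 343 ± 63.1 and Il18 at 229 ± 138, in the opposite order and with overlapping ranges. With the longest transcript as the length, Casp4 stood at 313 and Gsdme at 110.3 per kilobase, and the order of the 7 did not change. For Casp1 and Pycard both lengths are the same, so that this could not change their order against each other. On that length Il18 at 321 and Gsdmd at 320.2 were nearly equal, and the range of Gsdme, 88.2 to 145 per kilobase, overlapped those of Gsdmd and Il18, whose lowest libraries stood at 109.96 and 131.

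The coefficient of variation between libraries of Gsdmd was 35.3% in Mcph1-/- and 18.4% in WT, where Poisson counting of reads, without the noise of amplification, gives 5.10% in Mcph1-/- and 3.58% in WT. Casp1 varied by 32.3% in Mcph1-/- and 74.5% in WT, Casp4 by 26.1% in Mcph1-/- and 65.4% in WT, and Pycard by 14.7% in Mcph1-/- and 50.1% in WT. All genes tested had median coefficients of 40.7% in Mcph1-/- and 54.6% in WT. Gsdme had a similar spread in both, at 25.1% in Mcph1-/- and 24.2% in WT.

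Profiles most like those of the members with the highest mean values, Pycard and Casp1, were sought over the 6 libraries among 8832 genes, by the root mean square difference of mean-centred log2 values. For Pycard these were Cib1, a calcium- and integrin-binding protein (0.07), Igtp, an interferon-induced GTPase (0.10), and Eci2, an enzyme of fatty acid breakdown (0.14), where the median gene was at 0.997. For Casp1 they were Ptcd3, a mitochondrial ribosome protein (0.10), Xrcc4, a DNA end-joining protein (0.20), and Arhgap5, a GTPase-activating protein (0.22), where the median gene was at 1.09. With 6 points per profile and this many genes some close profiles are always found, and the points share their library and size factor.

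Other genes of the pathway were sorted by role into 6 lists with 108 genes, of which 72 were tested and the rest are not analysed here. By the mean of log2 values 37 were higher and 35 lower in Mcph1-/-, and none passed the test over all genes by limma, edgeR or DESeq2. An unadjusted p under 0.05 was found for 4 of them by limma, 3 by edgeR and 6 by DESeq2. These are 5.56%, 4.17% and 8.33% of the 72, beside 7.71%, 5.47% and 10.9% of all genes tested by the same tools. Genes to which DESeq2 gave no p-value, such as Irak4, are kept in these totals. The median log2 fold change was 0.03 beside 0.08 over all genes tested. Groups did not overlap for 9 of the 72, or 12.5%, beside 14.2% of all genes tested.

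Among sensors and their partners 9 of 21 genes were tested, 6 higher and 3 lower, and the median was 0.08 on the log2 scale. Panx1, a membrane channel that releases ATP, stood at 79.4, 335 and 125 in Mcph1-/-, against 10.8, 0 and 54.7 in WT. Its groups did not overlap, and its log2 value of 4.11 (SE 1.81; limma adjusted p = 0.653) was 3.07 by edgeR and 3.04 by DESeq2. Dpp8 and Dpp9, peptidases that hold the sensor NLRP1 in check, stood at 1.37 (SE 1.30) and -1.77 (SE 2.93) on the same scale, with 0.50 by edgeR for Dpp8.

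Of 13 genes of other caspases, their adaptor and caspase inhibitors 12 were tested, 8 higher and 4 lower, with a median of 0.23. Fadd, the gene of a death-domain adaptor, averaged 703 ± 144 in Mcph1-/- and 473 ± 147 in WT (SD, n = 3 each), or 0.60 in log2 (SE 0.38; limma adjusted p = 0.698), and its libraries overlapped.

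Pore formers and membrane repair genes numbered 10 tested of 17, 5 higher and 5 lower, with a median of 0.06 that was -0.28 without WT replicate 1. Ninj1, which ruptures the plasma membrane late in lytic death, averaged 3039 ± 641 in Mcph1-/- and 3936 ± 346 in WT (SD, n = 3 each), or -0.39 in log2 (SE 0.20; limma adjusted p = 0.662). Chmp2a of the ESCRT-III complex, which seals membrane wounds, was at -0.42 (SE 0.21), and Lamtor1 of the lysosomal Ragulator complex at -0.82 (SE 0.43).

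For cytokines, receptors and antagonists 5 of 13 genes were tested, 2 higher and 3 lower, with a median of -0.18 that was 0.70 without Mcph1-/- replicate 2. Hmgb1, a chromatin protein that acts as a danger signal once released, stood at 3049, 2836 and 2016 in Mcph1-/-, against 702, 1328 and 1755 in WT. Those groups did not overlap (log2 fold change 1.14, SE 0.36; limma adjusted p = 0.617), but its exons overlap 2 other genes and the gene has near-identical processed copies, so the value is uncertain. Il1rl1, the receptor gene for interleukin-33, stood at 89.4, 103 and 74.1 in Mcph1-/-, against 0, 0 and 37.5 in WT (log2 fold change 4.72, SE 1.89; limma adjusted p = 0.638; 2.86 by edgeR). Il18bp, which encodes a soluble trap for interleukin-18, was at -0.66 in log2 (SE 0.71) and had its highest value in WT replicate 2.

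The priming and receptor signalling list had 17 of 21 genes tested, 10 higher and 7 lower, with a median of 0.44, which was 0.091 by edgeR and 0.047 by DESeq2. Nfkbia, which encodes the NF-kB inhibitor and is itself an NF-kB target, stood at 5006, 5008 and 3580.2 in Mcph1-/-, against 6565, 9406 and 5364 in WT. Every Mcph1-/- library was below every WT library, at -0.63 in log2 (SE 0.24; limma adjusted p = 0.626). Traf6 (4.37, SE 2.49) and Irak4 (3.62, SE 2.16), a ubiquitin ligase and a kinase below the interleukin-1 receptor family, had 0 reads in WT replicate 1, and Traf6 also in WT replicate 2. On recovered reads these values were 0.091 by edgeR and 0.047 by DESeq2 for Traf6, and 0.41 by edgeR and 0.39 by DESeq2 for Irak4. For Irak4 DESeq2 gave no p-value. Traf6 averaged 180.1 ± 90.5 in Mcph1-/- and 174 ± 302 in WT (SD, n = 3 each).

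Of the cytosolic DNA, interferon and GBP genes 19 of 23 were tested, 6 higher and 13 lower, with a median of -0.19. Irf2, a transcription factor known from mice to drive Gsdmd transcription, stood at 1077, 951 and 1112 in Mcph1-/-, against 1835, 1468 and 1505 in WT. Its groups did not overlap either, with a mean of 1047 ± 84.7 in Mcph1-/- and 1603 ± 202 in WT (SD, n = 3 each) or -0.61 in log2 (SE 0.23; limma adjusted p = 0.626). Whether Irf2 has a part in the Gsdmd values was not tested. The interferon-induced GTPase genes Irgm1 (-0.76, SE 0.34) and Gbp7 (-0.44, SE 0.22) each had a limma adjusted p of 0.662, and the libraries of Gbp7 did not overlap. Sequence overlap with another gene, which unstranded counting cannot resolve, also touches Dpp8, Fadd, Lamtor1, Il18bp, Irak4 and Gbp7. Tbk1, a kinase below the DNA sensor STING, and Ikbkg, a subunit of the kinase complex that frees NF-kB, are outside the naming rule and were picked after their values were seen, as genes whose libraries did not overlap. Tbk1 averaged 479.9 ± 23.3 in Mcph1-/- and 325 ± 89.9 in WT (SD, n = 3 each), or 0.59 in log2 (SE 0.42; limma adjusted p = 0.722). Ikbkg averaged 72.3 ± 45.4 in Mcph1-/- and 161 ± 43.0 in WT (SD, n = 3 each), or -1.34 in log2 (SE 1.03; limma adjusted p = 0.727). The exons of Ikbkg also overlap another gene, G6pdx.

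**Figure D4:**
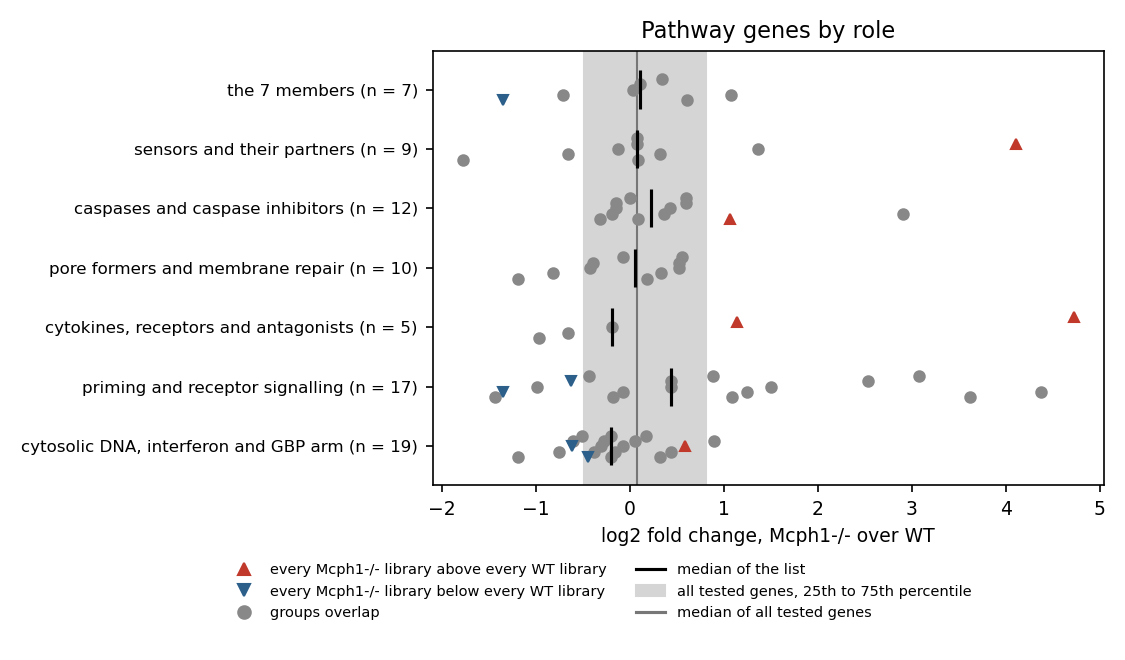
Log2 fold changes (Mcph1-/- over WT) of the 7 members and of the tested pathway genes by role, with black lines at list medians, a grey line at the median of all tested genes (0.08) and a grey band from their 25th to their 75th percentile; triangles mark genes whose libraries do not overlap. Of the 72 pathway genes 9 carry triangles, and list medians run from -0.19 to 0.44.

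Leaving out libraries moved the members unequally. Over the 6 fits that each leave out 1 library, the log2 fold change of Gsdmd ran from -1.53 to -1.01, that of Casp4 from -1.10 to -0.21 and that of Il18 from 0.19 to 1.07, each with 1 sign throughout. For Casp1 it ran from -0.15 to 0.92, for Gsdme from -0.073 to 0.30, for Pycard from -0.47 to 0.37 and for Aim2 from -0.74 to 3.42.

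**Figure D5:**
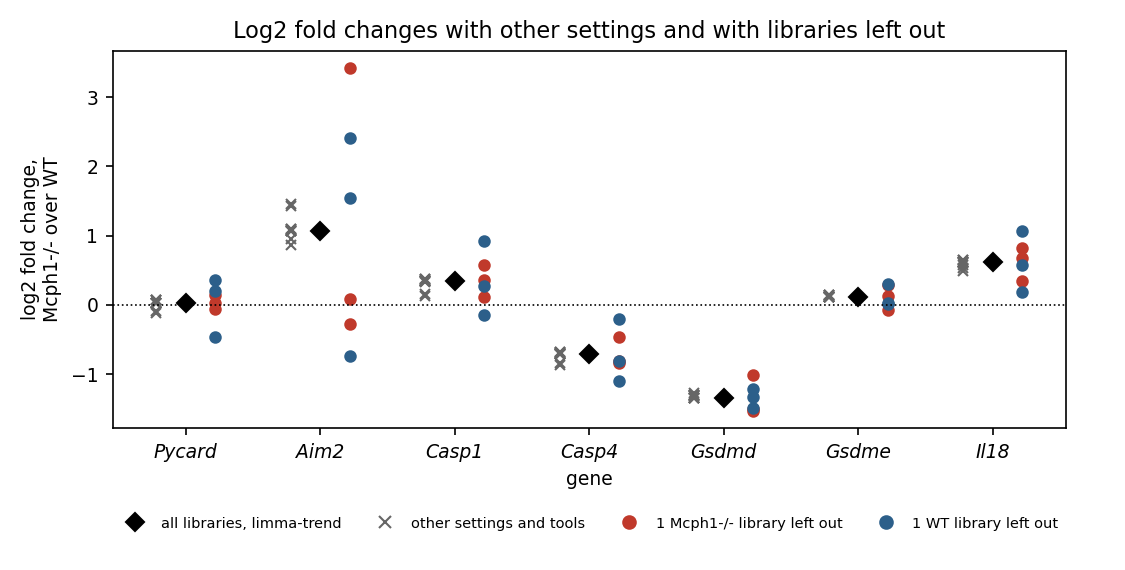
Log2 fold change (Mcph1-/- over WT) of the 7 genes with all libraries by limma-trend (diamonds), with other settings and tools (crosses) and with 1 Mcph1-/- library (red) or 1 WT library (blue) left out. Gsdmd stays between -1.53 and -1.01, while Aim2 spreads from -0.74 to 3.42.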

How the data were processed

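RNA-seq of sorted mouse bone marrow stem cells was deposited by the authors as 1 table of a signal: read counts per gene, scaled by a size factor for each library. Per the submitters' processing notes the genome was mm10 and the tools included featureCounts, HISAT2, DESeq2 and Trim Galore 0.6.6, with no role or order stated. Annotation release and strandedness are not given in the sources. Whole reads were recovered from 100% of values (tolerance 0.001 reads), and no gene in the table has reads in fewer than 4 libraries. Floors (3 reads) cover counting error only, as PCR copies cannot be told from molecules.

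All libraries entered limma-trend 3.58.1 (R 4.3.3) on log2(value + 1), fitted to genotype alone, for genes whose mean reached 10. A fold change on this scale understates that of low genes. A library at 0 pushes the log2 fold change up if it is WT and down if it is Mcph1-/-. edgeR 4.0.16, DESeq2 1.42.0 and limma-voom on recovered reads, other pseudocounts, filters and scalings, a replicate block and left-out libraries were alternatives, and the tests were checked on simulated reads. Positions are those of GENCODE vM21 (96.2% of identifiers matched). Members, gene lists and ratios were chosen with earlier results of these data known. Named pathway genes are the 3 per role with the smallest p, plus those past the threshold (none). Some genes that this rule names are not reported here.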

Additional observations from a re-analysis of the deposited data

How the results depend on the processing

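None of the 7 members and none of the 72 pathway genes passed under any of the 16 alternatives run. Not every pathway gene was tested in each. DESeq2 gave no p-value for Irak4, and a higher filter on the mean left out low genes such as Chmp4b and Cgas. Over all genes, 4 passed with limma-trend, against 2 by edgeR, 238 by DESeq2 and 1 by limma-voom, and 1 to 4 when 1 library was left out. Gsdmd kept its sign in all 16, from -1.53 to -1.01, with adjusted p from 0.0626 (DESeq2) to 0.858. The log2 fold change of Pycard was -0.084 by edgeR and -0.12 by DESeq2. With 1 library left out, values ran from -0.15 to 0.92 for Casp1, -0.073 to 0.30 for Gsdme, -0.47 to 0.37 for Pycard and -0.74 to 3.42 for Aim2; the cause was not tested. The sign also turned for Dpp9 without Mcph1-/- replicate 1 (-4.62 to 0.19 over left-out libraries) and Il18bp without WT replicate 2 (-1.23 to 0.098). Medians over roles turned sign too, for sensors (-0.076 without Mcph1-/- replicate 2), cytokines (0.016 by edgeR, and -0.58 to 0.70 over left-out libraries) and pore formers (-0.046 by edgeR, -0.076 by DESeq2, and -0.28 to 0.23 over left-out libraries).

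Deviations from the group mean had correlations of -0.03 to 0.02 between same-numbered libraries and of -0.03 to 0.04 between differently numbered ones. These cannot tell whether libraries shared a litter, day or batch, which the labels do not state. With the replicate number as a block 3 genes passed, and the adjusted p of Gsdmd was 0.700. Other scalings moved the median of all genes by 0.03. Depth limits what can be said of libraries with 0 reads, such as those of Aim2, Panx1, Il1rl1, Traf6 and Irak4, where 3 reads are worth 2.46 to 3.25 normalised reads.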
